A study of Mus musculus with 21 samples.

Results

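Peaks of chromatin accessibility and of Sox7 binding were described around 10 genes of bone morphogenetic protein (BMP) signalling, out of 21887 protein-coding mouse genes. The genes were the ligands Bmp2 and Bmp4, the receptors and co-receptor Bmpr2, Acvrl1 and Eng, the inhibitory Smads Smad6 and Smad7, and the target genes Id1, Id2 and Id3. They were chosen by name, and every peak inside a gene body or within 50 kb of it (mm10) was collected.

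All samples were A2lox-Sox7-Myc cells, a single mouse embryonic stem cell line derived from E14Tg2a in which doxycycline switches on Myc-tagged Sox7, a transcription factor of blood vessel and blood progenitors. The cells were grown as embryoid bodies, floating aggregates that form mesoderm, and were taken at day 4. ATAC-seq, which reads accessible chromatin, compared cells given doxycycline at 1 µg/ml for 24 h (induced) with untreated cells (uninduced), in 2 libraries of each for PDGFRα-FLK1+ cells (EPC, endothelial progenitors in the submitters' naming) and 2 of each for PDGFRα+FLK1+ cells (CPC, cardiac progenitors). Anti-Myc ChIP-seq, which reads binding of the tagged protein, used unsorted cells in 4 induced and 4 uninduced libraries, with 1 input library of untreated cells. Every group thus carries the transgene, and only doxycycline differs between induced and uninduced cells, so an effect of the drug itself cannot be told apart from that of Sox7. Groups follow the sort given with each ATAC sample, since the growth protocol speaks of PDGFRα+FLK1- cells instead. RNA levels were not analysed here, so nothing below is a measure of expression.

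BMP ligands bind pairs of type I and type II receptors, which phosphorylate Smad1, Smad5 and Smad9. With Smad4 these enter the nucleus and switch on targets such as the Id genes and the inhibitory Smads, and the inhibitory Smads in turn dampen the receptors. In the embryo, BMP signalling is needed for mesoderm and for FLK1+ progenitors, while Acvrl1 and Eng act chiefly in endothelium, where they carry the signal of BMP9 and BMP10.

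Promoter sequence shows the letters around gene starts, some of which lie under peaks described below. The RefSeq table used here (GRCm38.p6) held promoters of 6 of the 10 genes, namely Bmp4, Bmpr2, Eng, Smad6, Id2 and Id3, each with 250 bases before the gene start and 50 after it. The 4 printed are those of Smad6, Id2 and Id3, where all 8 ATAC libraries had a peak over the gene start, and that of Eng, where no library had one. Bmpr2 also had a peak over its start in all 8 libraries, and its promoter is not printed. The letters searched, on both strands, were ACAAT (the core of SOX sites), GGCGCC (a GC-rich site of Smad1 and Smad5) and GTCTG (the Smad4 box). No matches of different motifs overlapped in the 6 promoters. Capitals mark every match, and a match to the reverse strand is printed as its complement (CAGAC for GTCTG).
Smad6, chr9:64022010-64022309, minus strand: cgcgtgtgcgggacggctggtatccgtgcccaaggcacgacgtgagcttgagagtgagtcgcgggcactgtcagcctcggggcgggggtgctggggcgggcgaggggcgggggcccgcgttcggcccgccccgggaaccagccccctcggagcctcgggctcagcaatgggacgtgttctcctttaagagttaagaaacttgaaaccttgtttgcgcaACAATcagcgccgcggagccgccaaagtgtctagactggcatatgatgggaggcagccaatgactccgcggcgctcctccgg
Id2, chr12:25096043-25096342, minus strand: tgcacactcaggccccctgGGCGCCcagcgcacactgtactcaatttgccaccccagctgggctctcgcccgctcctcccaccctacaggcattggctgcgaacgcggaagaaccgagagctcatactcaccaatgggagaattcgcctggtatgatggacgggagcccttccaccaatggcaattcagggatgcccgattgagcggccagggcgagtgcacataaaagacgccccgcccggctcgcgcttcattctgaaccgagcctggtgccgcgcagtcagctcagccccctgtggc
Id3, chr4:136143572-136143871, plus strand: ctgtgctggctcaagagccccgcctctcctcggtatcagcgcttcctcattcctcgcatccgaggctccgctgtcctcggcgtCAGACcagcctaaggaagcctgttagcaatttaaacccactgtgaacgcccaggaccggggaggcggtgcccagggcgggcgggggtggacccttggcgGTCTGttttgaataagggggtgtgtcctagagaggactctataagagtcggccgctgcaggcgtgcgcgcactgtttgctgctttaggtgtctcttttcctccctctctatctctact
Eng, chr2:32646345-32646644, plus strand: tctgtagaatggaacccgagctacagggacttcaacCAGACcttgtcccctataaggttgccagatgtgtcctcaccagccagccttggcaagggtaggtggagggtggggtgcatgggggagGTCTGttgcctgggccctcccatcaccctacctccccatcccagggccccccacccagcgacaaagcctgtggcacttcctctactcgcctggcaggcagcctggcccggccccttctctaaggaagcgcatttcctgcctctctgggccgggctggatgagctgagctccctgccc

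The Smad6 promoter held 1 ACAAT at positions -32 to -28 from the gene start, and no other of the 6 promoters held one. A GGCGCC lay at -231 to -226 in the Id2 promoter and at -105 to -100 in the Bmpr2 promoter. GTCTG matched the Id3 promoter at -167 to -163 (reverse strand) and -68 to -64, and the Eng promoter at -214 to -210 (reverse strand) and -127 to -123. The Bmp4 promoter held none of the 3 motifs. Among 32851 promoters of the same length, 31.0% held ACAAT, 11.9% held GGCGCC and 49.6% held GTCTG, so each motif is common. The G and C content was 66.3% for Smad6, 63.3% for Id2, 60.0% for Id3, 63.3% for Eng, 64.0% for Bmp4 and 59.3% for Bmpr2, against a median of 52.7% over all promoters. A match describes the letters only and is no evidence of binding.

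The deposited ATAC lists held 23068 to 30732 peaks and the ChIP lists 772 to 2807, with 689 in the input list. Reads per library are not given, so depth is unknown, and a missing peak can come from a shallower library as well as from closed or unbound chromatin. Replicate 2 had the shortest list among uninduced EPC (23694 peaks) and uninduced CPC (23068 peaks). Of the 772 peaks in ChIP list 4 of the uninduced cells, 585 started at the same base as a peak in list 2 (75.8%, against at most 1.26% in any other pair of lists of 1 assay). Both lists are kept among the uninduced libraries below. The rule for ChIP sites allows no peak in any uninduced list, so counting this pair as 1 library changes no call. As a check of the induction, 1 ATAC region inside Sox7 had a peak in 4 of 4 induced and 0 of 4 uninduced libraries, and another had one in 4 induced and 3 uninduced libraries, although reads from the transgene and the native gene cannot be told apart. EPC-only regions, with a peak in all 4 EPC and no CPC library, lay within 50 kb of 3 of 7 endothelial marker genes (Cdh5, Erg and Fli1), all 5 blood markers (Tal1, Gata1, Spi1, Itga2b and Ikzf1) and 0 of 8 cardiac markers. CPC-only regions lay near 0 endothelial, 0 blood and 2 of 8 cardiac markers (Hand2 and Tbx20). Of all genes with a peak nearby, 8.48% had an EPC-only region within 50 kb and 5.61% a CPC-only one. How far the blood-type signal in the EPC sort bears on the BMP genes was not tested.

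Around the 10 BMP genes, overlapping ATAC peaks merged into 97 regions, of 51264 in all (0.189%). None lay in the windows of 2 members at once. Of the 97, 31 had a peak in all 8 libraries (32.0%, against 25.5% of all regions and 28.6% of those within 50 kb of any gene). Every one of the 10 genes had at least 1 such region, as did 79.8% of all genes with a peak nearby. A further 24 appeared in 1 library (24.7%, against 26.7% of all regions). Uninduced CPC replicate 1 supplied 10 of those 24 (41.7%), against 16.2% of all regions called in 1 library. EPC induced replicate 2 supplied 0 of the 24 and 17.6% of all such regions, the most of the 8 libraries.

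Peaks near the 10 genes numbered 52 and 59 in induced EPC and 55 and 49 in uninduced EPC. They numbered 59 and 62 in induced CPC and 67 and 48 in uninduced CPC. The induced and uninduced ranges overlapped in CPC and in EPC, and uninduced CPC had the widest spread. Means were 55.5 ± 4.95 in induced EPC, 52.0 ± 4.24 in uninduced EPC, 60.5 ± 2.12 in induced CPC and 57.5 ± 13.4 in uninduced CPC (SD, n = 2 each). As a share of each list the order was the other way, since the induced lists were longer. The share was 0.186% ± 0.00849 in induced EPC and 0.202% ± 0.00707 in uninduced EPC, and 0.212% ± 0.0148 in induced CPC and 0.225% ± 0.0247 in uninduced CPC (SD, n = 2 each).

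**Figure D1:**
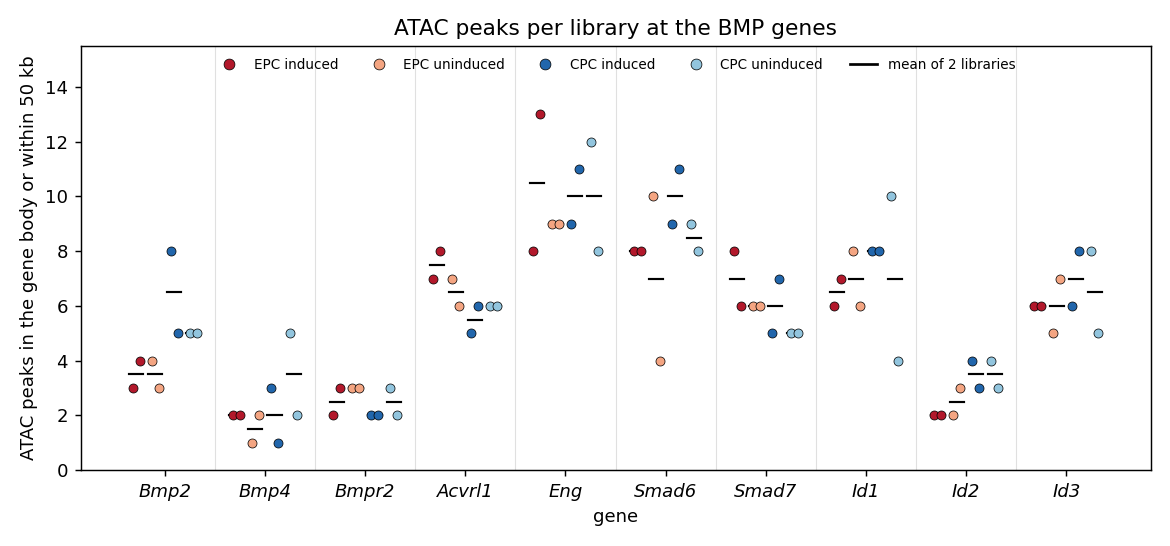
ATAC peaks per library within 50 kb of each of the 10 genes, with 1 point per library and the 4 groups side by side, EPC left of CPC and induced left of uninduced, and a bar for the mean of 2 libraries. Bmp2 had 3 to 4 peaks in EPC libraries and 5 to 8 in CPC libraries, and in the other 9 genes the EPC and CPC points overlap.

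Bmp2, a ligand that the early heart field uses, was the 1 gene of the 10 whose EPC and CPC peak numbers did not overlap. Its window held 3 and 4 peaks in induced EPC, 4 and 3 in uninduced EPC, 8 and 5 in induced CPC, and 5 and 5 in uninduced CPC. All 4 EPC libraries thus lay below all 4 CPC libraries. The difference was -2.25 peaks (means 3.5 ± 0.577 in EPC and 5.75 ± 1.5 in CPC, SD, n = 4 each), with a 2-sided exact permutation p of 0.0286, the smallest that 70 arrangements allow. Adjusted over the 19564 genes with a nearby peak by the Benjamini-Hochberg method, that exact permutation p was 0.565. No gene can pass this adjustment at 0.05 unless most genes reach the smallest p, so failing it decides nothing. Lower numbers in EPC without overlap occurred in 1.7% of all genes, higher ones in 3.36%, and either in 5.06%, against 1 of the 10 BMP genes. Without EPC uninduced replicate 2 this count was 3 of the 10, and without CPC induced replicate 2 it was 2. Numbers over all genes rose in these settings too. An unadjusted exact permutation p under 0.05 was reached by 1458 of 19515 and 1115 of 19501 genes, against 989 of 19564 with all libraries. With a window of 10 kb the difference for Bmp2 was -1.5 peaks and the libraries overlapped (exact permutation p = 0.0571).

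The region that separated the cell types most at Bmp2 lay 7.55 kb beyond the higher boundary of the gene, at chr2:133570449-133571430, and was picked out after its values were seen. Its peak score, the authors' own measure of how strongly a peak was called, was 51.6 in EPC uninduced replicate 1, and the other 3 EPC libraries had no peak. In CPC the score was 473 and 178 in induced libraries and 264 and 148 in uninduced libraries. CPC therefore had a peak in 4 of 4 libraries and EPC in 1 of 4, a split with an exact Fisher p of 0.143. Regions with a peak in all 4 CPC and at most 1 EPC library made up 2.79% of all regions, and 2 of the 97 (2.06%), the other being near Smad6. The reverse, a peak in all 4 EPC and at most 1 CPC library, held for 3.27% of all regions and 1 of the 97, near Eng. At the lower boundary of Bmp2, chr2:133551575-133553928 had a peak in all 8 libraries, with scores of 482 and 694 in induced EPC, 683 and 369 in uninduced EPC, 469 and 584 in induced CPC, and 670 and 193 in uninduced CPC. The groups overlapped there, and the lowest scores of both uninduced pairs came from replicate 2. Another all-library region, chr2:133585667-133587175, lay 22.8 kb beyond the higher boundary, with scores of 171 and 196 in induced EPC, 133 and 72.2 in uninduced EPC, 376 and 320 in induced CPC, and 185 and 213 in uninduced CPC. Within each cell type the induced scores there lay above the uninduced ones, but 2 against 2 libraries allow no exact permutation p below 0.333. A ChIP peak of induced replicate 3 overlapped it, as described with the binding data. Regions with the same order and no ChIP peak are also given there. The region gained in CPC near Bmp2, chr2:133580695-133581314, lay 17.8 kb beyond the higher boundary, scored 67.3 and 86.4 in induced CPC and had no peak in uninduced CPC or in any EPC library.

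Bmp4, the ligand that drives mesoderm formation, had 2 and 2 peaks in induced EPC, 1 and 2 in uninduced EPC, 3 and 1 in induced CPC, and 5 and 2 in uninduced CPC. The groups overlapped, with CPC uninduced replicate 1 highest. A region inside the gene, chr14:46386822-46388092, was the 1 of its 6 regions with a peak in all 8 libraries. Its scores were 141 and 204 in induced EPC, 217 and 119 in uninduced EPC, 235 and 201 in induced CPC, and 257 and 159 in uninduced CPC. The gene start itself, in chr14:46389951-46391134, was called in 4 libraries, with scores of 75.9 in EPC induced replicate 2, 72.5 in CPC induced replicate 1, and 155 and 50.4 in uninduced CPC. No region near Bmp4 was gained or lost under induction or specific to a cell type by the rules given below.

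Bmpr2, a type II receptor, had the fewest regions, 3. Its window held 2 and 3 peaks in induced EPC, 3 and 3 in uninduced EPC, 2 and 2 in induced CPC, and 3 and 2 in uninduced CPC. The region over the gene start, chr1:59762491-59765230, scored 422 and 479 in induced EPC, 650 and 212 in uninduced EPC, 315 and 278 in induced CPC, and 246 and 142 in uninduced CPC. Every library had this peak, and between 18.1% and 45.7% of each list scored higher. The other region called in all 8 libraries lay 34.1 kb downstream, inside Fam117b, and the region left, inside Bmpr2, was called in 1 library.

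Acvrl1, the type I receptor of endothelial cells, had 7 and 8 peaks in induced EPC, 7 and 6 in uninduced EPC, 5 and 6 in induced CPC, and 6 and 6 in uninduced CPC. EPC libraries lay at or above CPC libraries, meeting at 6, and the difference was 1.25 peaks (exact permutation p = 0.114). Its lower boundary had no peak in any library. At its higher boundary, chr15:101145124-101146087 was called in every library, with scores of 72.3 and 95.4 in induced EPC, 52.3 and 60.1 in uninduced EPC, 127 and 80.6 in induced CPC, and 69.4 and 68.6 in uninduced CPC. Inside the gene, chr15:101140927-101141702 had peaks in EPC induced replicate 1 (score 56.8) and replicate 2 (80.6) and in no other library, which makes it a region gained in induced EPC. Both scores were low in their lists, where 50 is about the lowest value listed.

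A region 2.29 kb beyond the higher boundary of Acvrl1, chr15:101147624-101148842, scored 158 and 178 in induced EPC, 389 and 177 in uninduced EPC, 56.3 in CPC induced replicate 2, and 145 and 112 in uninduced CPC. CPC induced replicate 1 had no peak there. All 4 EPC scores were thus above all CPC scores, a comparison seen in the data first and across lists whose depth is unknown, so it was not tested.

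Eng, the co-receptor endoglin, had 8 and 13 peaks in induced EPC, 9 and 9 in uninduced EPC, 9 and 11 in induced CPC, and 12 and 8 in uninduced CPC, and the groups overlapped. No library of either cell type had a peak over its gene start. Of 21263 gene starts of protein-coding genes, 41.9% likewise had no peak in any library and 42.8% had one in all 8. Only 3 of its 15 regions lay inside the gene, and all 5 with a peak in every library lay 10.9 kb to 44.4 kb away, nearer to other genes (St6galnac6, Fpgs, Cdk9 and Sh2d3c).

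Eng had both a region gained in induced EPC and the 1 EPC-only region among the 97. The gained region, chr2:32661469-32662516 inside the gene, scored 60.5 and 129 in induced EPC and was not called in uninduced EPC. It was also called in CPC induced replicate 2 (79.5) and CPC uninduced replicate 1 (90.2), so its presence followed induction in EPC and not in CPC. The EPC-only region, chr2:32602395-32603308, lay 43.3 kb upstream and inside St6galnac6, with scores of 62.5 and 67.1 in induced EPC, 60.1 and 56.6 in uninduced EPC and no peak in CPC. EPC-only regions made up 2.1% of all regions and CPC-only regions 1.8%, against 1 and 0 of the 97. CPC-only regions numbered 2 without EPC uninduced replicate 1 and 1 without CPC induced replicate 2, settings in which the share of all regions was not counted. The exact Fisher p of the region was 0.0286, the smallest that 4 against 4 libraries allow, and 0.733 when adjusted over all 51264 regions. Over all regions this exact test gave 1999 with an unadjusted p under 0.05 and 0 after adjustment. Passing would need most regions to reach the smallest p, so the 0 decides nothing.

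Smad6, the inhibitory Smad most specific for BMP signals, had 8 and 8 peaks in induced EPC, 10 and 4 in uninduced EPC, 9 and 11 in induced CPC, and 9 and 8 in uninduced CPC. Its gene start lay in chr9:64021469-64023601, which spans the printed promoter. Scores there were 843 and 732 in induced EPC, 609 and 493 in uninduced EPC, 448 and 562 in induced CPC, and 638 and 467 in uninduced CPC. In EPC both induced libraries were above both uninduced ones, whereas in CPC they overlapped. As 11.4% to 19.6% of each list scored higher, this was a strong peak in every library. A region 22.6 kb upstream, chr9:64044687-64045996, was of similar strength, with scores of 618 and 692 in induced EPC, 824 and 469 in uninduced EPC, 556 and 444 in induced CPC, and 786 and 284 in uninduced CPC.

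Smad6 was the 1 gene of the 10 with a region gained in each cell type, at different places. In EPC, chr9:63918909-63920352, 32.7 kb downstream, scored 65.3 and 125 in induced libraries and was not called in uninduced ones. The same region was called in CPC induced replicate 2 (63.9) and, with a higher score than either EPC library, in CPC uninduced replicate 1 (174). In CPC, chr9:64016699-64017673, inside the gene, scored 52.8 and 84.1 in induced libraries and was not called in uninduced ones, while EPC uninduced replicate 1 had it at 73.1. In each case, then, a library of the other cell type without doxycycline also had the peak. A region 10.6 kb downstream, chr9:63941499-63942432, was the other one called in all 4 CPC libraries and at most 1 EPC library. It scored 57.3 in EPC uninduced replicate 1, against 77.1 and 94.6 in induced CPC and 233 and 142 in uninduced CPC (exact Fisher p = 0.143).

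Smad7, which inhibits both BMP and TGF-beta receptors, held the strongest region of the 10 genes, at its lower boundary. Scores of chr18:75366033-75368256 were 1246 and 1190 in induced EPC, 1347 and 766 in uninduced EPC, 1133 and 1027 in induced CPC, and 1411 and 714 in uninduced CPC. Only 4.28% to 8.74% of the peaks of each list scored higher. In both cell types the uninduced pair bracketed the induced pair, with replicate 1 above and replicate 2 below. Its peak numbers were 8 and 6 in induced EPC, 6 and 6 in uninduced EPC, 5 and 7 in induced CPC, and 5 and 5 in uninduced CPC, which overlapped. Of its 13 regions, 6 were called in 1 library, 2 in all 8, and none was gained, lost or specific to a cell type.

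Id1, a helix-loop-helix inhibitor and a classical BMP target, had 6 and 7 peaks in induced EPC, 8 and 6 in uninduced EPC, 8 and 8 in induced CPC, and 10 and 4 in uninduced CPC, and the groups overlapped. At its lower boundary, chr2:152734594-152736909 scored 734 and 773 in induced EPC, 944 and 276 in uninduced EPC, 857 and 367 in induced CPC, and 820 and 409 in uninduced CPC. Replicate scores lay close in induced EPC and far apart in the other 3 groups, and the groups overlapped.

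Id1 had the most induction calls of the 10 genes, 2 gained in CPC and 1 lost in EPC, all 26.5 kb or more from the gene and inside others. In CPC, chr2:152696540-152697415, inside H13, scored 62.8 and 69.0 in induced libraries and had no peak in uninduced ones. EPC induced replicate 2 (58.2) and EPC uninduced replicate 1 (59.6) also had it. The other, chr2:152763898-152764945, in Cox4i2 and Bcl2l1, scored 61.1 and 91.5 in induced CPC and had no peak in uninduced CPC, while all 4 EPC libraries had it at 53.8 to 86.8. In EPC, chr2:152766349-152767182, inside Bcl2l1, had no peak in induced libraries and scored 62.7 and 50.3 in uninduced ones. That region was called in both induced CPC libraries (71.9 and 51.4) and in CPC uninduced replicate 1 (63.4). Nearer to Id1, chr2:152729243-152730166, 6.08 kb below it, scored 51.0 in CPC induced replicate 1 and 149 and 73.9 in uninduced CPC. It had no peak in EPC (exact Fisher p = 0.143). Nearer still, chr2:152741404-152743062, 3.99 kb above Id1, scored 54.2 in EPC induced replicate 2 and 136 in EPC uninduced replicate 1. That region had no peak in CPC (exact Fisher p = 0.429). Both met none of the rules, were picked out after their values were seen, and have no share of all regions counted.

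Id2, a BMP target with a part in cardiac and blood lineages, had few peaks, 2 and 2 in induced EPC, 2 and 3 in uninduced EPC, 4 and 3 in induced CPC, and 4 and 3 in uninduced CPC. EPC libraries lay at or below CPC libraries, meeting at 3, and the difference was -1.25 (exact permutation p = 0.0857, adjusted over all genes 0.834). The gene start, in chr12:25095487-25096811 over the printed promoter, scored 475 and 573 in induced EPC, 564 and 253 in uninduced EPC, 391 and 398 in induced CPC, and 499 and 270 in uninduced CPC. Another region called in all libraries, chr12:25098313-25100444, lay 2.22 kb upstream. It scored 251 and 469 in induced EPC, 501 and 321 in uninduced EPC, 295 and 531 in induced CPC, and 929 and 411 in uninduced CPC. The 1 region lost in induced CPC among the 97 was chr12:25092169-25093037, 0.762 kb downstream of Id2, which had no peak in induced CPC, scored 77.8 and 54.9 in uninduced CPC, and was also called in EPC uninduced replicate 2 (52.5).

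Id3, a further Id gene and BMP target, had 6 and 6 peaks in induced EPC, 5 and 7 in uninduced EPC, 6 and 8 in induced CPC, and 8 and 5 in uninduced CPC. The start, in chr4:136143159-136145352 over the printed promoter, scored 445 and 438 in induced EPC, 535 and 229 in uninduced EPC, 330 and 247 in induced CPC, and 462 and 235 in uninduced CPC, and the groups overlapped. Of its 9 regions 5 were called in all 8 libraries. The gained region with the highest score near any of the 10 genes was chr4:136159642-136160594, 14.2 kb downstream of Id3 and nearer to E2f2. It scored 83.3 and 208 in induced CPC, had no peak in uninduced CPC, and was also called in EPC induced replicate 1 (63.1).

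**Figure D2:**
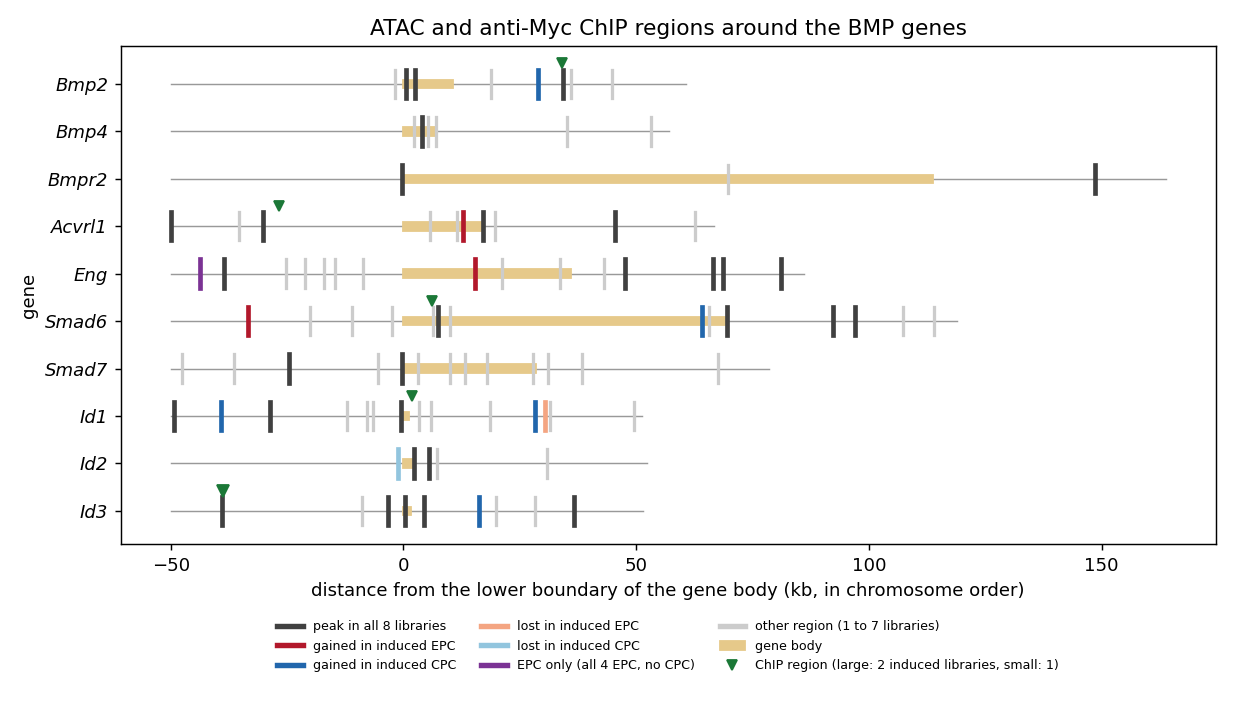
ATAC regions along the window of each of the 10 genes, by distance in kb from the lower boundary of the gene body. Dark marks are regions called in all 8 libraries, which occur in every window (31 in all), colours mark the gained, lost and EPC-only regions, grey the rest, and triangles the 5 ChIP regions.

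**Figure D3:**
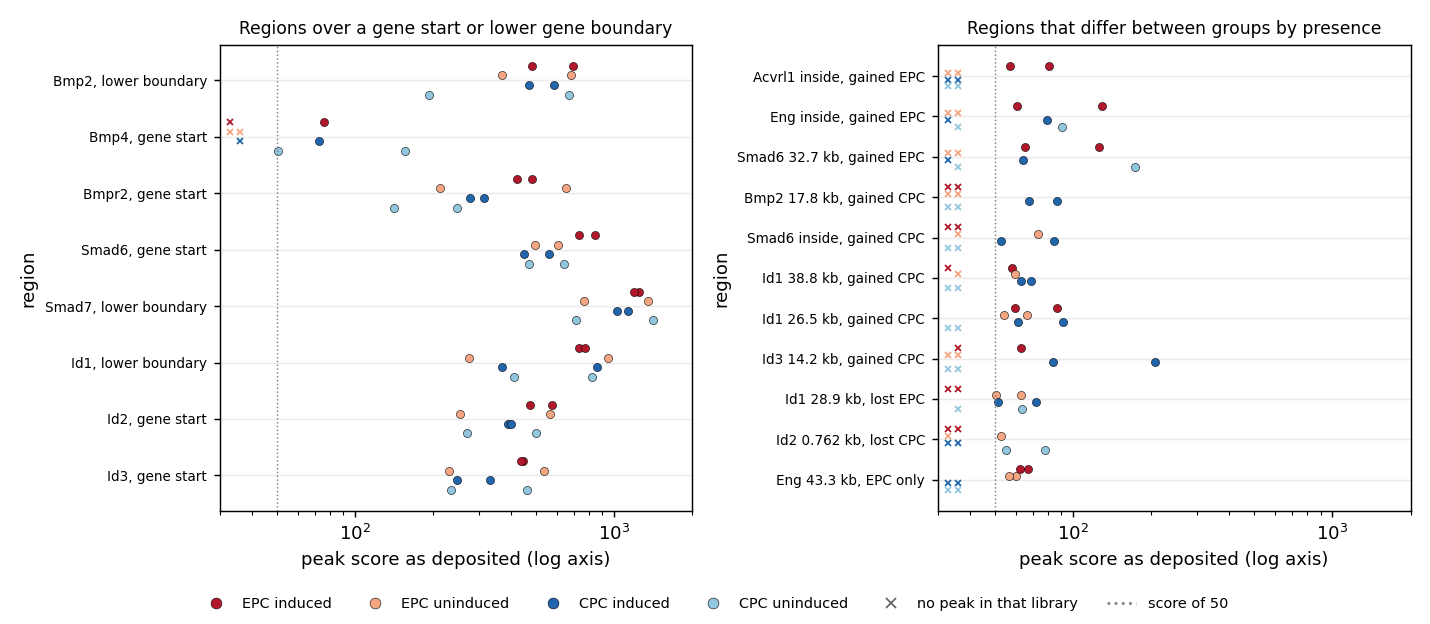
Peak scores by library for the regions at gene starts or boundaries (left) and for the 11 gained, lost or EPC-only regions (right), where a cross stands for no peak and the dotted line for a score of 50. The Smad7 boundary region is highest, at 714 to 1411, and the called regions are mostly below 100.

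By these rules, 3 of the 97 regions were gained in induced EPC (called in both induced libraries and in no uninduced one), which is 3.09%, against 6.12% of all ATAC regions. They lay near Acvrl1, Eng and Smad6. In CPC 5 were gained (5.15%), against 5.75% of all regions, 2 near Id1 and 1 each near Bmp2, Smad6 and Id3. Among regions within 50 kb of any gene, the shares gained were 5.67% in EPC and 5.24% in CPC. Lost regions numbered 1 in EPC (1.82% of all regions) and 1 in CPC (2.35% of all regions). By gene, 3 of the 10 had a region gained in EPC and 4 had one gained in CPC, against 21.9% and 20.7% of all genes with a nearby peak. The windows of the 10 held a median of 6.19 peaks per library, against 2.88 for all genes. Shares by gene thus compare unlike windows, and the shares by region above are not higher than those of all regions. Id1 was the 1 gene with a region lost in EPC (7.91% of all genes) and Id2 the 1 with a region lost in CPC (9.35% of all genes).

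The counts rested on single libraries. Gained regions in EPC numbered 7 without EPC induced replicate 1, 10 without EPC induced replicate 2 and 7 without EPC uninduced replicate 1. In CPC they numbered 10 without CPC induced replicate 1, 11 without CPC induced replicate 2 and 9 without CPC uninduced replicate 1. Lost regions in EPC numbered 2 and 3 without EPC induced replicates 1 and 2, and 4 and 6 without EPC uninduced replicates 1 and 2. In CPC they numbered 3 without either induced replicate, 2 without CPC uninduced replicate 1 and 14 without CPC uninduced replicate 2. Each library left out makes the rule easier to meet for any region, and the shares of all regions in these settings were not counted. At 14, the lost regions of CPC without the shortest list outnumbered the 6 gained ones of that setting. With all lists reduced to equal length, 1 of the 5 regions gained in CPC (near Id3) and 0 of the 3 gained in EPC were still called.

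The scores of the gained regions were ordinary for gained regions. In EPC the mean induced score was 68.7 near Acvrl1, 94.8 in Eng and 95.2 near Smad6, and 22.5%, 55.8% and 56.1% of all regions gained in EPC were lower. For CPC it was 145 near Id3, higher than 83.4% of all regions gained in CPC. The other CPC values were 76.9 near Bmp2, 68.4 in Smad6, and 65.9 and 76.3 near Id1, higher than 36.8%, 23.0%, 18.4% and 35.9% of all. None of the 8 had a score of 100 or more in both induced libraries, whereas 25.9% of all regions gained in EPC and 24.8% in CPC did. The authors' deposited lists of peaks present only with doxycycline held the same places, 3 of 3267 entries for EPC and 5 of 3093 for CPC. The scores listed there were those of induced replicate 1, so these lists stem from the same peaks and are no independent support.

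**Figure D4:**
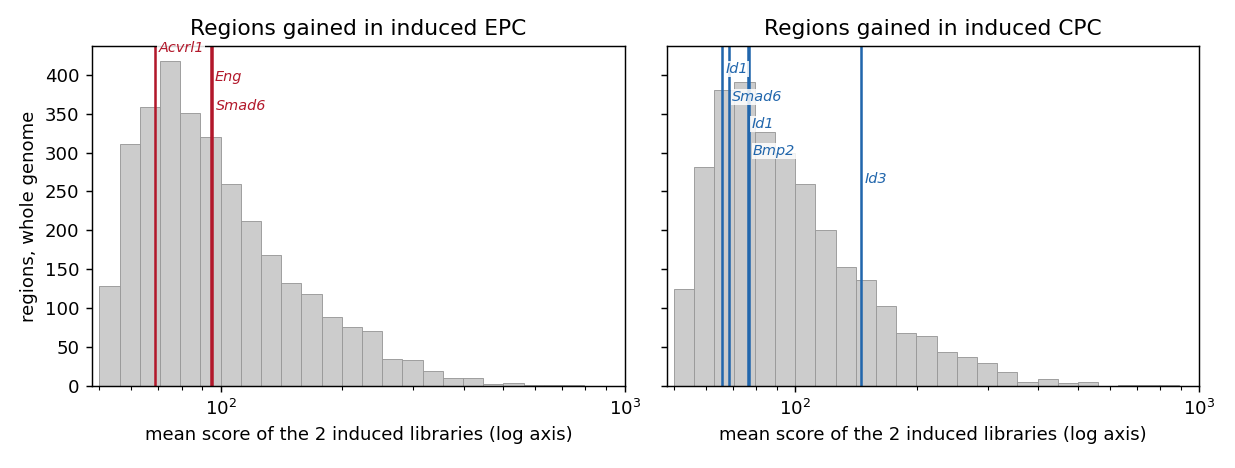
Histograms of the mean induced score (horizontal axis) over all regions gained in EPC and in CPC, with lines for the gained regions near the 10 genes and the number of regions on the vertical axis. The lines near Acvrl1, Eng and Smad6 stand at 68.7 to 95.2 in EPC, and the line farthest right in CPC is Id3 at 145.

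Peak numbers per gene gave no call for induction. Over both cell types the induced libraries averaged more peaks than the uninduced ones at 7 of the 10 genes and fewer at 3, against 11428 genes higher, 4514 lower and 3622 equal overall. The median difference was 0.25 peaks per gene for the 10 and for all genes alike. The smallest exact permutation p among the 10 was 0.5, and arranging induction within each cell type allows none below 0.0556, so this test had no way to call a gene. Between cell types, the median difference of EPC from CPC was -0.75 peaks for the 10 genes and 0.25 for all genes. After adjustment the share of genes called was 0.0% in either comparison, with 989 genes at an unadjusted exact permutation p under 0.05 for cell type, Bmp2 among them, and 0 for induction. For cell type no gene could pass adjustment unless most genes reached the smallest p, so the 0.0% decides nothing.

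Sox7-Myc ChIP peaks near the 10 genes were counted by library. The 4 induced libraries had 2, 0, 4 and 0 there (0.132%, 0.0%, 0.143% and 0.0% of their lists), while the 4 uninduced libraries and the input library had 0. The mean was 1.5 ± 1.91 in induced libraries (SD, n = 4), and since 2 induced libraries also had 0 the groups overlapped. No region met the rule for an induced ChIP site (at least 3 of 4 induced and no uninduced library), which 5.17% of the 4548 ChIP regions met. Of all genes with a nearby ATAC peak, 2.1% had such a site within 50 kb, so 0 of 10 is near the share over all genes. The 5 ChIP regions near the 10 genes lay near Bmp2, Acvrl1, Smad6, Id1 and Id3. The share of all genes with any such region nearby was not counted.

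The Id3 region was the 1 with more than 1 library. It lay 38.5 kb upstream at chr4:136104642-136105316, with scores of 43.9 in induced replicate 1 and 40.4 in induced replicate 3, close to the lowest score listed (40). With induced replicate 2 or induced replicate 4 left out and the rule eased to 2 of the 3 induced libraries left, 1 region met it. Regions in exactly 2 induced and no uninduced library made up 9.19% of ChIP regions, and it was also the 1 place near the 10 genes in the authors' deposited list of 666 Sox7 regions. It overlapped chr4:136104268-136105477, called in all 8 ATAC libraries. The ATAC scores there were 349 and 365 in induced EPC, 297 and 217 in uninduced EPC, 205 and 257 in induced CPC, and 187 and 58.3 in uninduced CPC. In each cell type both induced scores were above both uninduced ones, and all EPC scores but 1 were above all CPC scores. Between 2 and 2 libraries no exact permutation p can fall below 0.333, so the order was not tested. Both induced scores also lay above both uninduced ones in each cell type at regions with no ChIP peak. These included chr18:75342100-75343653, 23.7 kb below Smad7, and chr15:101145124-101146087 at the higher boundary of Acvrl1. The share of all regions with this order was not counted.

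The other 4 ChIP regions each had a peak in 1 induced library, as did 51.4% of all ChIP regions. Near Bmp2, chr2:133585601-133587023 scored 95.8 in induced replicate 3 and overlapped the region 22.8 kb away that was called in all 8 ATAC libraries. Near Acvrl1, chr15:101101514-101102247 scored 45.5 in induced replicate 3, 26.3 kb below the gene and nearest to Ankrd33, with no ATAC region under it. Inside Smad6, chr9:63958699-63959620 scored 52.4 in induced replicate 1 and overlapped an ATAC region of 1 library. Beyond the higher boundary of Id1, chr2:152737569-152738516 scored 40.2 in induced replicate 3 at 0.159 kb, with no ATAC region under it. None of the 5 overlapped a region gained or lost in EPC or CPC, and induced replicate 3 had the longest ChIP list (2807 peaks). The authors' deposited list of 117 regions shared by Sox7 and Gata4 had none near the 10 genes.

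The wider BMP and TGF-beta pathway was counted over 54 further ligands, receptors, Smads, antagonists and targets. EPC and CPC peak numbers did not overlap in 4 of them (7.41%, against 5.06% of all genes), each with an exact permutation p of 0.0286 and an adjusted p of 0.565. The ligand gene Bmp8a had 4, 4, 4 and 3 peaks in EPC libraries and 2 in each CPC library. Smad4, the shared partner of the receptor-activated Smads, had 4, 4, 3 and 4 in EPC libraries and 2 in each CPC library. Smad5, a BMP-activated Smad, had 1, 1, 2 and 1 peaks in EPC libraries and 4, 3, 3 and 4 in CPC libraries. Gdf2, which encodes BMP9, a ligand of Acvrl1 and Eng, had 0 in every EPC library and 2, 1, 2 and 1 in CPC libraries. Of the 54, 12 had a region gained in induced EPC (22.2%) and 9 one gained in induced CPC (16.7%), close to the 21.9% and 20.7% of all genes. CPC-only regions lay near 9 of the 54 (16.7%, against 5.61% of all genes) and EPC-only regions near 5 (8.48% of all genes).

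Of the 54, 1 gene (1.85%, against 2.1% of all genes), the type I TGF-beta receptor gene Tgfbr1, had an induced ChIP site. It lay 34.7 kb away at chr4:47449628-47450684, nearer to Alg2, with scores of 42.3, 83.0 and 152 in induced replicates 1, 2 and 3 and no peak in replicate 4 or in uninduced libraries. In ATAC-seq, 1 library had a peak there.

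Over the 8 ATAC libraries, the genes on other chromosomes most like Bmp2 in the share of the list's summed score that fell in their window were Gm21162 (chromosome 14, Pearson r = 0.991), Gm3248 (chromosome 14, 0.988) and Gm31714 (chromosome 13, 0.988), out of 17972 compared. The 8 points share cell types and list lengths, and the best of so many genes will be high, so these values are a description.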

How the data were processed

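The deposited files were peak lists of mm10 (GRCm38), with a score per peak that the authors' peak caller gave. MACS 1.4, Bowtie2 and bedtools are among the tools named without a role in the submitters' processing notes, and a score in that MACS format equals -10 times log10 of p for the peak. Lists hold no read counts, so depth is unknown and no counting interval was computed. Peaks of an assay overlapping by 1 bp were merged into regions, and a region took the highest score of each library.

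Gene positions came from RefSeq (GRCm38.p6), which gives no strand. Strand was taken from the promoter entries of 6 of the 10 genes, and the other 4 have a lower and a higher boundary instead. Peak numbers per gene (19564 genes with a peak within 50 kb) were compared by exact permutation tests and regions by Fisher's exact test, 2-sided, with Benjamini-Hochberg adjustment over all genes or regions (Python 3.11.15, scipy 1.17.1), after a check on simulated data. Whether replicates came from separate cultures is not stated in the labels, and p-values therefore cover only variation among these samples, possibly technical.

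All 10 genes, and each of their gained, lost, EPC-only, ChIP-bound or gene-start regions, were named. Other pathway genes were named where they had an induced ChIP site or no overlap between EPC and CPC. The genes and lists were chosen with earlier results of these data known. Alternatives were a score minimum of 100, lists of equal length, a 10 kb window, a merging overlap of 200 bp, a minimum mean of 2 peaks per gene, the replicate block, other ChIP rules and leaving out each library.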

Additional observations from a re-analysis of the deposited data

Results flagged for a closer look

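ChIP peak numbers within 50 kb of single genes set 1 induced library apart from the other 3 at 4 genes. The value was 1 peak in induced replicate 3 near Bmp2, 1 in induced replicate 3 near Acvrl1, 1 in induced replicate 1 near Smad6 and 1 in induced replicate 3 near Id1, against 0 in the other 3 induced libraries each time. These were 4 of 24 sets of 4 libraries looked at, by Dixon's gap test at the 95% level. Sets with 0 peaks in every library were among the 24 and could not be set apart. With values of 0 and 1 any single peak is set apart. The 5% of groups that the test sets apart by chance therefore does not apply to these counts.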

How the results depend on the processing

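Limits: scores and presence of a peak depend on a depth that is not known, and each called region rests on 2 libraries against 2. With a score of 100 or more required, the regions near the 10 genes were 3 gained in EPC (near Smad6 and Smad7, 0 of them among the 3 described) and 0 gained in CPC. A further 2 were lost in CPC (near Acvrl1 and Smad6), 0 were lost in EPC, 0 were EPC-only and 1 was CPC-only (near Bmp2). With all lists cut to equal length they were 1 gained in EPC (near Smad6), 1 gained in CPC (near Id3) and 3 lost in EPC (near Smad6 and Smad7). The others were 4 lost in CPC (near Acvrl1, Smad6, Id1 and Id2), 0 EPC-only and 2 CPC-only (near Bmp2 and Smad6). With a 10 kb window they were 1 gained in CPC, 0 lost in EPC and 0 EPC-only, and 0 genes had EPC and CPC numbers without overlap. Requiring 2 of 4 induced libraries gave 1 ChIP site. Shares of all regions were not counted in these settings or with a library left out, and the cause of the shifts was not tested.

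Leaving out each library in turn gave 3 to 10 gained in EPC, 5 to 11 gained in CPC, 1 to 6 lost in EPC, 1 to 14 lost in CPC, 1 to 1 EPC-only, 0 to 2 CPC-only and 0 to 1 ChIP sites (1 without induced replicate 2 or 4, where 2 of the 3 induced libraries left were required). Genes among the 10 without overlap numbered 1 to 3 (3 without EPC uninduced replicate 2, 2 without CPC induced replicate 2), and the difference at Bmp2 lay between -2.5 and -1.5. No gene of all tested passed adjustment in any setting, and the smallest adjusted p for cell type ranged from 0.382 to 0.968. In none of these settings could a gene pass unless most genes reached the smallest exact permutation p, so this decides nothing.

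The deviations of same-numbered replicates correlated weakly over genes (r of -0.0115 to 0.108). The highest r was that of uninduced EPC with uninduced CPC, groups in which replicate 2 also had the shortest list. Whether samples of the same number were processed together was not tested. With the replicate block, the smallest exact permutation p possible is 0.125, which is the p of Bmp2, and 0 genes were below 0.05.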
